A study of Mus musculus with 17 samples.

Results

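The genes described here are 9 components and targets of the Wnt pathway: Sp5, Lef1, Tcf7, Axin2, Dkk1, Nkd1, Dact2, Fzd2 and Prickle1. They were taken by symbol, matched to the Ensembl identifiers in the count tables, and are 9 of the 49671 genes those tables list. They were chosen with earlier results of these data known, so their share of calls cannot show that Wnt genes differ more often than others. RNA was measured in 17 SMART-Seq v2 libraries, a full-length cDNA method, from the mouse embryonic stem cell line R1 in a series on floor plate formation in neural tube organoids. All cells carried a FOXA2-Venus allele, a fluorescent reporter of FOXA2, the forkhead transcription factor of the floor plate. The groups were FOXA2-positive cells and FOXA2-negative cells from each of 3 treatments. In the BMP4 arm and the LDN arm, retinoic acid (RA) was given for 18 hours and was followed by 6 hours with no treatment. BMP4, a bone morphogenetic protein, or the agent that the labels name LDN was then given for 8 hours. The RA arm is labelled with the 18 hours of RA only, so treatment and time of collection cannot be told apart in a comparison with RA. Each group had 3 libraries numbered 1 to 3, except FOXA2-positive LDN, which had the 2 libraries numbered 2 and 3. All groups come from 1 stem cell line.

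Libraries held 8435845 to 10796136 counts in genes, and levels are given as CPM, which are counts scaled to the library's total. Foxa2 itself was higher in the FOXA2-positive group of each treatment, at 22.1 to 27.5 against 0.107 to 1.78 CPM in BMP4, at 37.5 to 43.3 against 0 to 2.92 CPM in LDN, and at 18.4 to 31.3 against 0.219 to 0.438 CPM in RA. Of 8 floor plate markers 5 could be tested, Foxa2 among them. All 5 had a positive log2 fold change between fractions in each treatment, and 1, Foxa2, was called in each. Foxa1 averaged 8.64 CPM in FOXA2-positive BMP4, 17 in FOXA2-positive LDN and 11.1 in FOXA2-positive RA cells, against 1.53, 2.75 and 2.1 CPM in the FOXA2-negative cells of the same treatments, and was not called. Shh had a mean of 0.603 CPM in FOXA2-positive LDN cells and no count in the other 5 groups, which allows up to 0.0978 to 0.107 CPM per group (3 counts over the group). Both RA libraries numbered 1 stood apart, at 32.29 and 33.32 on the second principal component against -15.93 to 4.75 in the others, with mitochondrial shares of 7.43% (FOXA2-positive) and 6.94% (FOXA2-negative) against at most 4.81%. Pluripotency genes, as in undifferentiated stem cells, were detected in all groups, and their sums are given beside the results below. In these bulk libraries, fewer cells of a type and less RNA per cell cannot be told apart.

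Wnt proteins are secreted ligands that bind Frizzled receptors. In the canonical branch this keeps beta-catenin from being degraded, and beta-catenin then works with TCF/LEF proteins on target genes, several of which code for inhibitors that feed back on the pathway. A second branch, planar cell polarity, uses Frizzled with Prickle and Vangl proteins to orient cells in a sheet. In the embryo, Wnt signalling is known for posterior and dorsal patterning of the neural tube, where it meets BMP signals from the dorsal side and the floor plate on the ventral side.

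In the order of the pathway, Fzd2 (ENSMUSG00000050288, chr11:102604396-102608058, plus strand) codes for a Frizzled receptor. Dkk1 (ENSMUSG00000024868, chr19:30545863-30549665, minus strand) codes for a secreted inhibitor that blocks the Wnt co-receptors. Inside the cell, Axin2 (ENSMUSG00000000142, chr11:108920349-108950783, plus strand) is a scaffold of the complex that degrades beta-catenin and is itself a widely used Wnt target. Nkd1 (ENSMUSG00000031661, chr8:88521354-88594884, plus strand) and Dact2 (ENSMUSG00000048826, chr17:14195052-14204304, minus strand) code for proteins that act at Dishevelled, the protein below Frizzled. Prickle1 (ENSMUSG00000036158, chr15:93499114-93595891, minus strand) is a core planar cell polarity gene. Lef1 (ENSMUSG00000027985, chr3:131110471-131224356, plus strand) and Tcf7 (ENSMUSG00000000782, chr11:52252371-52283014, minus strand) code for the DNA-binding partners of beta-catenin. Sp5 (ENSMUSG00000075304, chr2:70474923-70477729, plus strand) is a direct Wnt target that codes for a zinc finger transcription factor. Positions span the whole gene in GENCODE M21 on GRCm38, the assembly also called mm10. Exons of Lef1, Axin2 and Dact2 share bases with the antisense genes Gm43352, Gm11670 and AC151292.1, and the strand setting of the counting is not given in the sources used here, so reads of each pair may not be told apart.

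TCF/LEF proteins, which Lef1 and Tcf7 encode, bind a short core that can be looked for in promoters. Shown are the windows of 4 genes called in a comparison below that hold one of the cores searched: Sp5, Dkk1, Lef1 and Prickle1. RefSeq (GRCm38.p6) lists at least 1 promoter for 8 of the 9 genes, all but Fzd2. It lists 4 for Lef1 and 2 each for Tcf7 and Prickle1, of which only that nearest the GENCODE start was searched. The 250 bases before the RefSeq start were searched on both strands. The TCF core, CTTTGAA or CTTTGAT, was in 2 of the 8, Sp5 and Dkk1, and in 7.48% of 32851 listed promoters. The BMP-SMAD core GGCGCC was in 3 of the 8 (Lef1, Tcf7 and Prickle1) and in 9.59% of all promoters. The forkhead core TGTTTAC was in 0 of the 8 and in 3.17% of all promoters. A match describes these letters and is no measurement of binding. In the lines that follow, capitals mark a core: the TCF core of Sp5 lies 104 bases before its RefSeq start and that of Dkk1 lies 117 bases before its RefSeq start, and GGCGCC lies 217 bases before that of Lef1 and 57 bases before that of Prickle1. The GENCODE start of Dkk1 lies 169 bases upstream of its RefSeq start, so by GENCODE the Dkk1 core lies inside the gene, and the Dkk1 window overlaps an exon of Dkk1. The Lef1 window overlaps an exon of the antisense gene Gm43352. Dact2, which was also called, has none of the cores in its window. The GENCODE start of Dact2 lies 473 bases upstream of its RefSeq start, so that window lies inside the gene and overlaps its exon. The GENCODE start of Nkd1 lies 6279 bases upstream of its RefSeq start. For both, the bases before the GENCODE start were not searched. Sp5 is chr2:70474673-70474922 (plus strand), Lef1 is chr3:131110073-131110322 (plus strand), Prickle1 is chr15:93595903-93596152 (minus strand), and for Dkk1 a stretch of 30 bases around the core is shown, chr19:30549595-30549624 (minus strand).
Sp5: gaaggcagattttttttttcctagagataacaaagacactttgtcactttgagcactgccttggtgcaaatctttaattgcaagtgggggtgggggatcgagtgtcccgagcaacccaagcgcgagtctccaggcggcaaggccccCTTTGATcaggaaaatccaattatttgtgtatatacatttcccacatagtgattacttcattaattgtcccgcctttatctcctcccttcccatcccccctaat
Dkk1: tcctcccaaagCTTTGAAatcccatcccgg
Lef1: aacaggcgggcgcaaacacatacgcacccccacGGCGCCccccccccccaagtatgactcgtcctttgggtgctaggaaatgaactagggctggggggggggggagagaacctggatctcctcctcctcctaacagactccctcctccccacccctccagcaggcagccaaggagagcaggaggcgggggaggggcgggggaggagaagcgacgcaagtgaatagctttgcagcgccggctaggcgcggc
Prickle1: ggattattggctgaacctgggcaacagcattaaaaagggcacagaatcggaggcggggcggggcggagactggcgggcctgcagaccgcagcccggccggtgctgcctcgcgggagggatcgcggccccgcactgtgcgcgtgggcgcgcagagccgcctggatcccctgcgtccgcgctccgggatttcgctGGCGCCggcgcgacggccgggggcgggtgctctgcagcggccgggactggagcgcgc

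All 9 genes passed the filter on low counts and had counts in each of the 6 groups. Levels of different genes were compared per kilobase of exon. On that scale the receptor gene Fzd2 had the highest mean of the 9 in each group, at 27.9 ± 11.6 CPM per kilobase in FOXA2-positive BMP4 cells and 18.3 ± 0.956 in FOXA2-negative BMP4 cells (SD, n = 3 each). It had 55.3 ± 3.59 CPM per kilobase in FOXA2-positive LDN cells (SD, n = 2) and 23.3 ± 4.63 in FOXA2-negative LDN cells (SD, n = 3), and 40.4 ± 2.08 in FOXA2-positive RA cells against 16.3 ± 2.04 in the FOXA2-negative ones (SD, n = 3 each). Dact2 came next in 5 of the 6 groups. Dkk1 was the lowest of the 9 in both LDN groups and both RA groups, at means of 0.0954 to 1.46 CPM per kilobase. In the BMP4 groups it had 13.3 ± 0.623 CPM per kilobase in FOXA2-positive cells, close to Dact2 at 14.5 ± 4.78, and 6.06 ± 1.04 in FOXA2-negative cells, within 1 SD of Tcf7 at 6.19 ± 0.757 and Axin2 at 5.64 ± 0.316 (SD, n = 3 each). All other levels below are CPM without the division by length.

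**Figure D1:**
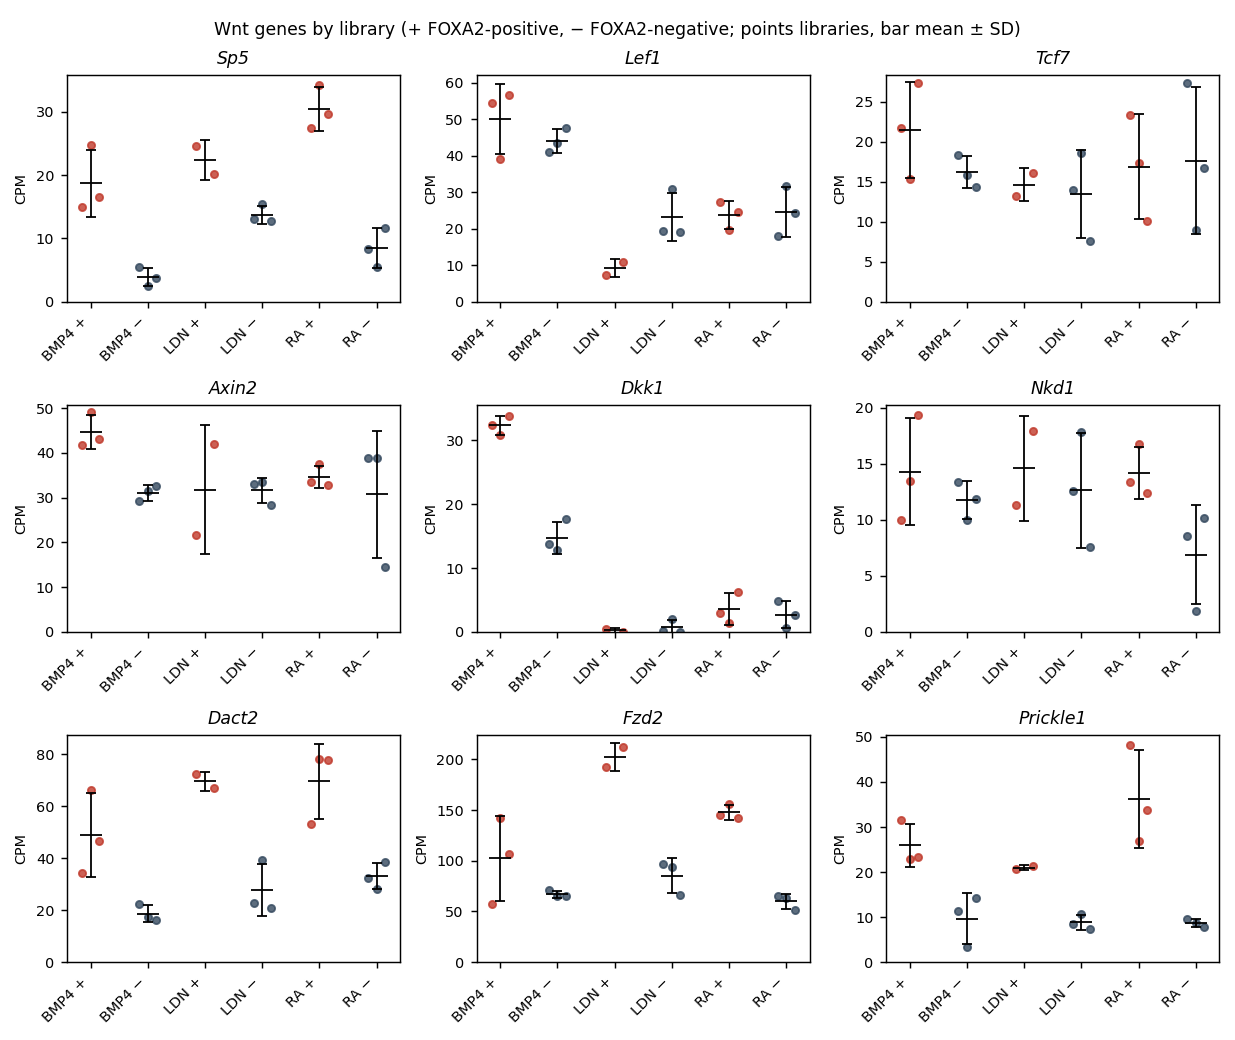
Each panel plots 1 gene, with CPM from 0 on the vertical axis and the 6 groups along the horizontal axis; points are libraries (red for FOXA2-positive, blue for FOXA2-negative), and bars give the mean ± SD. Dkk1 sits between 12.8 and 33.8 CPM in all BMP4 libraries and at or below 6.27 CPM elsewhere, while Fzd2, Dact2, Prickle1 and Sp5 have higher means in the FOXA2-positive group of each treatment.

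The first question was whether Wnt genes differ between FOXA2-positive and FOXA2-negative cells of the same treatment. Genes that rose in FOXA2-positive cells were the receptor gene Fzd2, the Dishevelled regulator Dact2, the planar cell polarity gene Prickle1 and the target Sp5, although not each in all 3 treatments. In BMP4, 2 of the 9 rose (Dact2 and Sp5), against 0.32% of the 17813 genes tested that were called higher. In LDN, 2 of the 9 rose (Dact2 and Fzd2), against 0.286% of all genes. In RA, 4 of the 9 rose (Fzd2, Dact2, Prickle1 and Sp5), against 0.371% of all genes. None of the 9 fell, where 0.601%, 0.707% and 0.82% of all genes fell in BMP4, LDN and RA. A gene was called at an adjusted p under 0.05 in edgeR's quasi-likelihood test. Because of how the 9 genes were chosen, their shares are set beside those of all genes as description only. In either direction, 0.921%, 0.994% and 1.19% of all genes were called in BMP4, LDN and RA. The libraries of both fractions did not overlap for 5 of the 9 in each treatment, against 14.6% of all genes in BMP4, 27.7% in LDN and 15.3% in RA. The members' median log2 fold change was 0.65 in BMP4, 0.26 in LDN and 1.07 in RA, where that of all genes was 0, -0.03 and 0. Without both RA libraries numbered 1, only Fzd2 of the 4 was still called in RA, with adjusted p-values of 0.0652 for Sp5, 0.0947 for Dact2 and 0.0844 for Prickle1. With the replicate number as a block in RA, the same 4 were called, and 362 genes in all in place of 212. That the RA numbers pair the libraries was inferred from the data, and no label states it.

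Fzd2 separated the fractions most clearly in LDN and RA. It had 57.8, 142 and 107 CPM in FOXA2-positive BMP4 libraries, against 71.1, 65.2 and 64.9 CPM in FOXA2-negative BMP4 libraries, given here and below in the order of the library numbers. It had 193 and 212 CPM in FOXA2-positive LDN libraries, against 97, 93.4 and 66 CPM in FOXA2-negative LDN libraries. It had 145, 156 and 142 CPM in FOXA2-positive RA libraries, against 65.1, 63.1 and 51.3 CPM in FOXA2-negative RA libraries. The fractions were well apart in LDN and RA and overlapped in BMP4, where the FOXA2-positive library numbered 1 lay below all FOXA2-negative libraries. Between fractions, edgeR gave Fzd2 a log2 fold change of 1.30 ± 0.24 in LDN (SE; adjusted p = 0.00578) and 1.32 ± 0.23 in RA (adjusted p = 0.00232). In BMP4 it was 0.65 ± 0.22 (adjusted p = 0.23). Without the FOXA2-positive BMP4 library numbered 1 it was 0.93, with an adjusted p of 0.0252. The LDN call was lost without the FOXA2-positive LDN library numbered 3 (adjusted p = 0.0914).

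Dact2 was called in all 3 treatments. It had 34.2, 66.2 and 46.6 CPM in FOXA2-positive BMP4 libraries, against 22.2, 17.5 and 16.2 CPM in FOXA2-negative BMP4 libraries. It had 72.2 and 67 CPM in FOXA2-positive LDN libraries, against 22.9, 39.4 and 21 CPM in FOXA2-negative LDN libraries. It had 53, 78.2 and 77.6 CPM in FOXA2-positive RA libraries, against 32.5, 28.3 and 38.6 CPM in FOXA2-negative RA libraries. Every FOXA2-positive library lay above every FOXA2-negative library of its treatment. For Dact2 edgeR gave a log2 fold change of 1.43 ± 0.28 in BMP4 (SE; adjusted p = 0.00789), 1.37 ± 0.30 in LDN (adjusted p = 0.0185) and 1.08 ± 0.27 in RA (adjusted p = 0.0472). The RA call lay close to the threshold and was lost in 5 of the 6 fits that left out 1 RA library, all but that without the FOXA2-positive library numbered 1 (adjusted p 0.0659 to 0.219 in the 5). The LDN call was lost in 4 of 5 such fits, all but that without the FOXA2-negative library numbered 2 (0.107 to 0.121 in the 4), and the BMP4 call was lost without the FOXA2-positive (0.0999) or FOXA2-negative (0.0582) library numbered 2. The direction was the same in each fit.

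Prickle1, which acts with Frizzled in planar cell polarity, was also higher in each FOXA2-positive group, and passed the test in RA. It had 31.5, 22.9 and 23.4 CPM in FOXA2-positive BMP4 libraries, against 11.4, 3.31 and 14.2 CPM in FOXA2-negative BMP4 libraries. It had 20.6 and 21.4 CPM in FOXA2-positive LDN libraries, against 8.46, 10.6 and 7.45 CPM in FOXA2-negative LDN libraries. It had 48.2, 26.8 and 33.8 CPM in FOXA2-positive RA libraries, against 9.53, 8.63 and 7.9 CPM in FOXA2-negative RA libraries. No libraries of the 2 fractions overlapped in any treatment. Prickle1 rose in RA, where edgeR gave a log2 fold change of 2.07 ± 0.39 (SE; adjusted p = 0.00553), a 4.21-fold difference. It was 1.47 ± 0.39 in BMP4 (adjusted p = 0.0733) and 1.29 ± 0.42 in LDN (adjusted p = 0.174). In BMP4 DESeq2 gave an adjusted p of 0.0243.

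Sp5, the direct target with a TCF core in the promoter window shown above, had the largest log2 fold change of the 9 in BMP4. It had 14.9, 24.8 and 16.5 CPM in FOXA2-positive BMP4 libraries, against 5.45, 2.46 and 3.81 CPM in FOXA2-negative BMP4 libraries. It had 24.6 and 20.2 CPM in FOXA2-positive LDN libraries, against 13, 15.4 and 12.7 CPM in FOXA2-negative LDN libraries. It had 27.5, 34.3 and 29.6 CPM in FOXA2-positive RA libraries, against 8.33, 5.49 and 11.7 CPM in FOXA2-negative RA libraries. The fractions did not overlap in any treatment, and they lay closest together in LDN. The log2 fold change was 2.31 ± 0.39 in BMP4 (SE; edgeR adjusted p = 0.00212) and 1.85 ± 0.37 in RA (adjusted p = 0.00885), and 0.76 ± 0.40 in LDN (adjusted p = 0.475; 95% interval -0.06 to 1.58). The BMP4 call was kept in each of 13 alternatives, at an adjusted p of at most 0.0374. The RA call was lost without the FOXA2-negative library numbered 2 (0.0754).

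The other 5 genes were not called between fractions. Axin2 had 41.8, 49 and 43.1 CPM in FOXA2-positive BMP4 libraries, against 29.2, 31.4 and 32.6 CPM in FOXA2-negative BMP4 libraries, with no overlap, and its log2 fold change there was 0.56 ± 0.30 (SE; edgeR adjusted p = 0.506). In LDN it had 21.6 and 42 CPM in FOXA2-positive libraries and 33, 33.5 and 28.3 CPM in FOXA2-negative libraries, with a log2 fold change of 0.06 ± 0.34. In RA it had 33.4, 37.4 and 32.9 CPM in FOXA2-positive libraries and 38.9, 38.9 and 14.4 CPM in FOXA2-negative libraries, with a log2 fold change of 0.19 ± 0.30. Both pairs of groups overlapped. So the widely used target Axin2 showed no call beside Sp5, a target that was called in BMP4 and RA.

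Nkd1 had 10, 13.5 and 19.4 CPM in FOXA2-positive BMP4 libraries and 13.4, 10 and 11.9 CPM in FOXA2-negative BMP4 libraries. It had 11.3 and 17.9 CPM in FOXA2-positive LDN libraries and 12.6, 17.8 and 7.55 CPM in FOXA2-negative LDN libraries. It had 13.4, 16.8 and 12.4 CPM in FOXA2-positive RA libraries and 8.55, 1.86 and 10.2 CPM in FOXA2-negative RA libraries. Only in RA did the fractions not overlap, with 1 FOXA2-negative library far below the others, and the log2 fold change was 1.07 ± 0.49 (SE; edgeR adjusted p = 0.421). It was 0.31 ± 0.48 in BMP4 and 0.26 ± 0.53 in LDN. The 407 genes of chromosome 8 that averaged 20 CPM or more had median log2 fold changes of -0.30, -0.27 and -0.31 in the same comparisons, so Nkd1 lay above its own chromosome in each. The part of that chromosome-wide shift in the value of Nkd1 was not tested.

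Lef1 and Tcf7, the partners of beta-catenin, did not share 1 pattern. Lef1 had 54.5, 39 and 56.6 CPM in FOXA2-positive BMP4 libraries, against 41.1, 43.6 and 47.7 CPM in FOXA2-negative BMP4 libraries. It had 7.41 and 11 CPM in FOXA2-positive LDN libraries, against 19.5, 30.9 and 19.2 CPM in FOXA2-negative LDN libraries. It had 27.3, 19.6 and 24.5 CPM in FOXA2-positive RA libraries, against 18.1, 31.8 and 24.3 CPM in FOXA2-negative RA libraries. The fractions overlapped in BMP4 and RA, and in LDN both FOXA2-positive libraries were the lowest of all 17. In LDN the log2 fold change of Lef1 was -1.28 ± 0.33 (SE; edgeR adjusted p = 0.0645), and DESeq2 gave an adjusted p of 0.0151. It was 0.21 ± 0.28 in BMP4 and -0.05 ± 0.28 in RA. Tcf7 ranged over 15.4 to 27.3 CPM in the FOXA2-positive BMP4 libraries and 14.4 to 18.4 CPM in the FOXA2-negative ones. In LDN FOXA2-positive libraries had 13.2 to 16.1 CPM and FOXA2-negative libraries 7.64 to 18.6 CPM, and in RA FOXA2-positive libraries had 10.1 to 23.3 CPM and FOXA2-negative libraries 8.92 to 27.3 CPM. Its groups overlapped in all 9 pairwise comparisons, with log2 fold changes between fractions of 0.43 ± 0.41 in BMP4, 0.18 ± 0.45 in LDN and -0.04 ± 0.41 in RA.

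**Figure D2:**
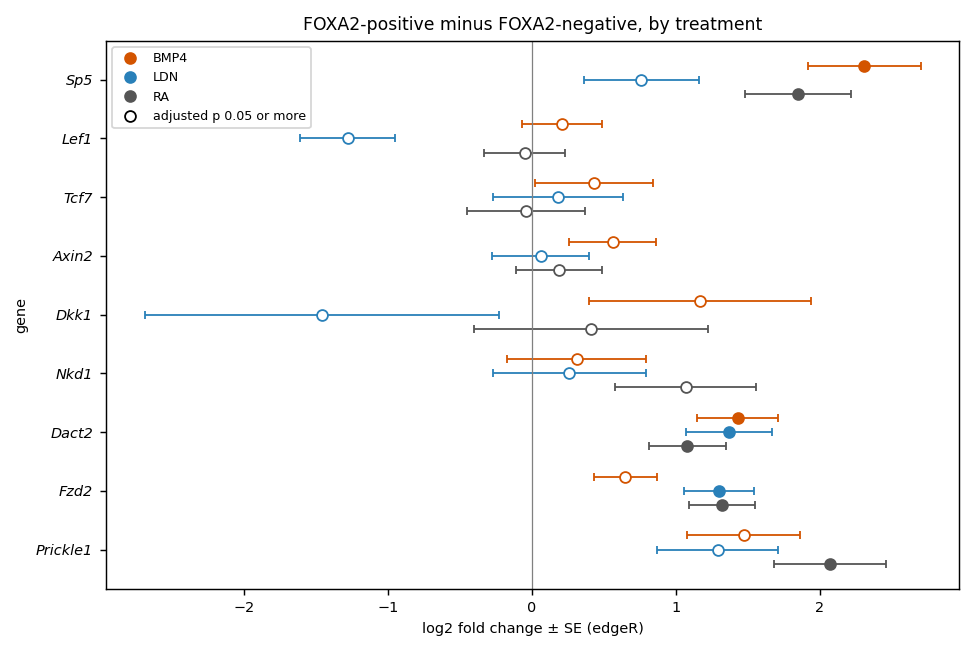
Log2 fold change of FOXA2-positive over FOXA2-negative cells (horizontal axis, edgeR, point ± SE) for the 9 genes (vertical axis) in BMP4, LDN and RA; filled points have an adjusted p under 0.05. Dact2 is filled in all 3 treatments, Sp5 in BMP4 and RA, Fzd2 in LDN and RA and Prickle1 in RA, and Lef1 in LDN lies at -1.28.

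The second question was how BMP4 and LDN cells, which share their time course, differ within a fraction. In FOXA2-positive cells the secreted inhibitor Dkk1 and the transcription factor Lef1 rose in BMP4, 2 of the 9 genes, against 0.236% of all genes called higher and 0.32% called in either direction. In FOXA2-negative cells Sp5 fell in BMP4, 1 of the 9, against 0.073% of all genes called lower and 0.196% called in either direction. Libraries of BMP4 and LDN did not overlap for 5 of the 9 in FOXA2-positive cells, against 22.4% of all genes, and for 3 of the 9 in FOXA2-negative cells, against 11.2%. The members' median log2 fold change was 0.26 in FOXA2-positive and -0.06 in FOXA2-negative cells, where that of all genes was 0.01 and 0.

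Dkk1 showed the largest difference of the 9. It had 32.4, 30.8 and 33.8 CPM in FOXA2-positive BMP4 libraries, against 0.463 CPM (5 counts) and 0 in the FOXA2-positive LDN libraries. It had 13.8, 12.8 and 17.6 CPM in FOXA2-negative BMP4 libraries, against 0.104, 2.03 and 0 CPM (1, 21 and 0 counts) in FOXA2-negative LDN libraries. A count of 0 allows up to 0.34 CPM in the FOXA2-positive LDN library numbered 3 and up to 0.29 CPM in the FOXA2-negative LDN library numbered 3, counting error only. Each BMP4 library lay above each LDN library in both fractions. The log2 fold change was 6.93 ± 1.29 in FOXA2-positive cells (SE; 95% interval 4.26 to 9.59; edgeR adjusted p = 0.00953), and its size is loosely set because the LDN group held 5 counts in all. It was 4.30 ± 0.92 in FOXA2-negative cells (95% interval 2.39 to 6.21; adjusted p = 0.0535). The FOXA2-positive call was lost when either LDN library was left out, with 1 library then standing for its group and assumed to vary like the others (adjusted p = 0.0771 without the library numbered 2 and 0.224 without that numbered 3). In FOXA2-negative cells the difference was called by DESeq2 (0.000648) and without the LDN library numbered 2, which held 21 of the 22 Dkk1 counts of its group (0.00084). Within BMP4, all 3 FOXA2-positive libraries lay above the FOXA2-negative ones, at 32.3 ± 1.51 and 14.7 ± 2.52 CPM (SD, n = 3 each), with a log2 fold change of 1.17 ± 0.77 (edgeR adjusted p = 0.62). It was -1.46 ± 1.23 between the LDN fractions and 0.41 ± 0.81 between the RA fractions.

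Lef1, whose per-library values are given above, averaged 50 ± 9.59 CPM in FOXA2-positive BMP4 cells (SD, n = 3) and 9.21 ± 2.54 CPM in FOXA2-positive LDN cells (SD, n = 2). All BMP4 libraries lay above both LDN libraries. The log2 fold change was 2.39 ± 0.35 (SE; edgeR adjusted p = 0.000469), a 5.25-fold difference, and it was called in each of 12 alternatives, at an adjusted p of at most 0.0491. In FOXA2-negative cells Lef1 averaged 44.1 ± 3.33 CPM in BMP4 and 23.2 ± 6.70 CPM in LDN (SD, n = 3 each), again with no overlap, and the log2 fold change was 0.89 ± 0.28 (edgeR adjusted p = 0.387). Tcf7 gave 0.50 ± 0.46 in FOXA2-positive and 0.25 ± 0.41 in FOXA2-negative cells, with overlapping groups in both.

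Sp5 lay lower in BMP4 than in LDN in FOXA2-negative cells, at 3.90 ± 1.5 CPM in BMP4 and 13.7 ± 1.49 CPM in LDN (SD, n = 3 each). The highest BMP4 library, at 5.45 CPM, lay below the lowest LDN library, at 12.7 CPM. The log2 fold change was -1.84 ± 0.38 (SE; edgeR adjusted p = 0.0335). The call was lost in 5 of the 6 fits without 1 of these libraries, all but that without the BMP4 library numbered 1 (adjusted p 0.063 to 0.222 in the 5), and with the 2 groups fitted alone (0.318). In FOXA2-positive cells Sp5 averaged 18.8 ± 5.31 CPM in BMP4 (SD, n = 3) and 22.4 ± 3.14 CPM in LDN (SD, n = 2), and the groups overlapped, with a log2 fold change of -0.30 ± 0.40.

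Fzd2 averaged 102 ± 42.3 CPM in FOXA2-positive BMP4 cells (SD, n = 3) and 203 ± 13.1 CPM in FOXA2-positive LDN cells (SD, n = 2). The groups did not overlap, and the log2 fold change of -1.03 ± 0.24 had an adjusted p of 0.0679 in edgeR and 0.0194 in DESeq2. In FOXA2-negative cells it was -0.38 ± 0.22 with overlapping groups. Dact2 gave -0.55 ± 0.30 in FOXA2-positive cells and -0.61 ± 0.28 in FOXA2-negative cells, and neither was called. Prickle1 gave 0.26 ± 0.42 and 0.08 ± 0.39, Axin2 0.44 ± 0.34 and -0.06 ± 0.30, and Nkd1 -0.08 ± 0.53 and -0.14 ± 0.48 in FOXA2-positive and FOXA2-negative cells. For these 3 genes the 95% intervals lay between -1.18 and 1.13 on the log2 scale.

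**Figure D3:**
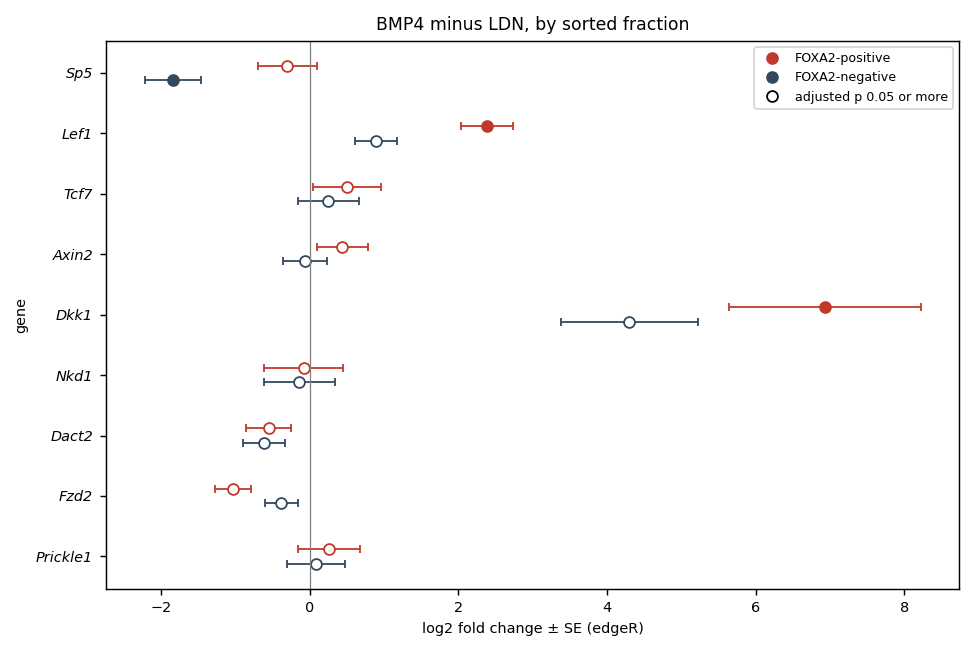
Log2 fold change of BMP4 over LDN (horizontal axis, edgeR, point ± SE) for the 9 genes (vertical axis) in FOXA2-positive and FOXA2-negative cells; filled points have an adjusted p under 0.05. Dkk1 lies far to the right at 6.93 and 4.30, Lef1 follows at 2.39 and 0.89, and Sp5 in FOXA2-negative cells lies at -1.84.

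Set against RA, where time of collection cannot be told apart from treatment, none of the 9 genes was called in any of the 4 comparisons. In FOXA2-positive BMP4 cells against RA cells 3 of the 9 had an unadjusted p under 0.05, against 5.6% of all genes, and DESeq2 called 1, Dkk1 (adjusted p = 0.0455). After adjustment edgeR called 0.0786% of all genes there. The share of all genes that DESeq2 called is not given, here or in the comparisons with RA that follow. In FOXA2-positive LDN cells 3 had an unadjusted p under 0.05, against 9.35% of all genes, and DESeq2 called 1, Lef1 (0.0308), with 0.208% of all genes called by edgeR. In FOXA2-negative BMP4 cells 4 of the 9 had an unadjusted p under 0.05 (7.36% of all genes), and in FOXA2-negative LDN cells 2 did (7.5%). DESeq2 called 0 of the 9 in both, and edgeR called 0.0786% and 0.0393% of all genes. Lef1 illustrates the order of the 3 treatments in FOXA2-positive cells. Its mean of 50 CPM in BMP4 lay above that of 23.8 ± 3.93 CPM in RA (SD, n = 3), with a log2 fold change of 1.09 ± 0.28 (edgeR adjusted p = 0.305). Its mean of 9.21 CPM in LDN lay below that in RA, with a log2 fold change of -1.30 ± 0.33 (adjusted p = 0.127). No libraries of these 3 groups overlapped for Lef1. Libraries were apart for 4 of the 9 genes in FOXA2-positive BMP4 against RA cells (11.9% of all genes), for 5 in FOXA2-positive LDN against RA cells (26.4%), for 4 in FOXA2-negative BMP4 against RA cells (10.5%) and for 2 in FOXA2-negative LDN against RA cells (12.3%). Dkk1 was ordered in the same way in FOXA2-positive cells, with 2.91, 1.41 and 6.27 CPM in RA, a log2 fold change of 3.21 ± 0.84 for BMP4 over RA (edgeR adjusted p = 0.35) and of -3.71 ± 1.19 for LDN over RA (adjusted p = 0.263). In FOXA2-negative cells Dkk1 had 4.82, 0.686 and 2.63 CPM in RA, with log2 fold changes of 2.45 ± 0.83 for BMP4 over RA and -1.85 ± 0.89 for LDN over RA. These comparisons share the RA libraries. Sp5 in FOXA2-negative cells had the other order, with a log2 fold change of -1.13 ± 0.38 for BMP4 over RA and 0.71 ± 0.37 for LDN over RA, and no overlap with RA in either.

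Whether the difference between fractions itself changed with treatment was tested by 3 interaction contrasts, in which none of the 9 genes was called by edgeR or by DESeq2. The share of all genes called was 0.0337% for BMP4 against LDN, 0.00561% for BMP4 against RA and 0.00561% for LDN against RA, in each case after adjustment. At an unadjusted p under 0.05 there were 2, 1 and 1 of the 9, against 6.18%, 4.17% and 5.81% of all genes. Lef1 had the smallest p among the members. Its FOXA2-positive over FOXA2-negative log2 fold change was greater in BMP4 than in LDN by 1.5 ± 0.43 (SE; unadjusted p = 0.00192, edgeR adjusted p = 0.607), and in LDN it was -1.23 ± 0.43 relative to RA (unadjusted p = 0.00871, adjusted p = 0.86). For Sp5 the difference between BMP4 and LDN was 1.55 ± 0.55 (unadjusted p = 0.0099, adjusted p = 0.779). For Fzd2 the difference between BMP4 and RA was -0.67 ± 0.32 (unadjusted p = 0.0431, adjusted p = 1). A gene called between fractions in 1 treatment and not in another was therefore not shown to differ between treatments.

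The wider pathway was read from 7 lists of Wnt genes by role, 125 genes in all, of which 110 passed the filter on low counts. Among the 101 that are not among the 9 genes, few were called. The 9 genes and the lists were chosen with earlier results of these data known. The contrast between the 9 and the 101 is therefore partly set by that choice. Between fractions, 0 of 101 were called in BMP4, 2 fell in LDN (0.707% of all genes fell), and 0 were called in RA by edgeR. At an unadjusted p under 0.05 edgeR had 19, 24 and 18 of the 101 in BMP4, LDN and RA, against 10.8%, 11.2% and 10.7% of all genes. After adjustment DESeq2 called 4, 4 and 1 of the 101, and its share of all genes is not given here. Both genes that fell in LDN code for Wnt ligands. Wnt4 had 1.57 and 3.29 CPM in FOXA2-positive LDN libraries, against 37.5, 19.8 and 16.5 CPM in FOXA2-negative LDN libraries, with an edgeR log2 fold change of -3.29 ± 0.62 (SE; adjusted p = 0.00578). Wnt6 had 3.52 and 4.43 CPM in FOXA2-positive LDN libraries, against 18.4, 27.5 and 33.4 CPM in FOXA2-negative LDN libraries, with a log2 fold change of -2.68 ± 0.55 (adjusted p = 0.0123). Neither overlapped between fractions. Both calls were lost without the FOXA2-positive LDN library numbered 2 (adjusted p = 0.136 for Wnt4 and 0.165 for Wnt6), and that of Wnt6 also without the library numbered 3 (0.112). In BMP4 the same log2 fold change was -0.95 ± 0.47 for Wnt4 and -0.45 ± 0.44 for Wnt6, and in RA it was -1.27 ± 0.48 and -1.25 ± 0.44, with no call. Of 17 ligand and secretion genes tested, 8, 7 and 6 had a positive log2 fold change in BMP4, LDN and RA, with medians of -0.14, 0 and -0.64.

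Among 23 receptor and R-spondin genes Fzd2 was called in LDN and RA and no other, and 15 of the 23 had a positive log2 fold change in each treatment, with medians of 0.40 in BMP4, 0.58 in LDN and 0.34 in RA. Among 15 secreted and surface inhibitor genes tested, 9, 9 and 11 had a positive log2 fold change in BMP4, LDN and RA, with medians of 0.44, 0.46 and 0.14. Of these, edgeR called 0, with 5, 2 and 1 at an unadjusted p under 0.05. Dact2 was the called gene among 23 intracellular components, whose medians were 0.21, 0.08 and 0.19 in BMP4, LDN and RA. Among 13 nuclear genes edgeR called 0 between fractions, with 3, 4 and 4 at an unadjusted p under 0.05 in BMP4, LDN and RA, where the shares of all genes are those given above, and medians of 0.21, 0 and -0.15. Among 15 planar cell polarity genes tested, 13, 11 and 11 had a positive log2 fold change in BMP4, LDN and RA, with medians of 0.37, 0.53 and 0.34, and only Prickle1 was called, in RA. Among 18 target genes Sp5 was called in BMP4 and RA, and the medians were 0.49, 0.40 and 0.43. Medians of all genes tested were 0, -0.03 and 0.

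Between BMP4 and LDN, 0 of the 101 other genes were called by edgeR in FOXA2-positive cells, with 15 at an unadjusted p under 0.05 (7.37% of all genes). DESeq2 called 3 of the 101, with its share of all genes again not given. In FOXA2-negative cells 1 rose (0.124% of all genes rose), Cdx2, a posterior homeobox gene counted here among Wnt targets. It had 61.4, 10.3 and 47.8 CPM in FOXA2-negative BMP4 libraries, against 5.01, 7.74 and 6.68 CPM in FOXA2-negative LDN libraries. The groups did not overlap, although the BMP4 library numbered 2 lay close to the LDN libraries. For Cdx2 edgeR gave a log2 fold change of 2.57 ± 0.42 (SE; adjusted p = 0.00242), and with the 2 groups fitted alone the adjusted p was 0.107. Cdx2 and Sp5 thus differed in opposite directions between the same groups.

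**Figure D4:**
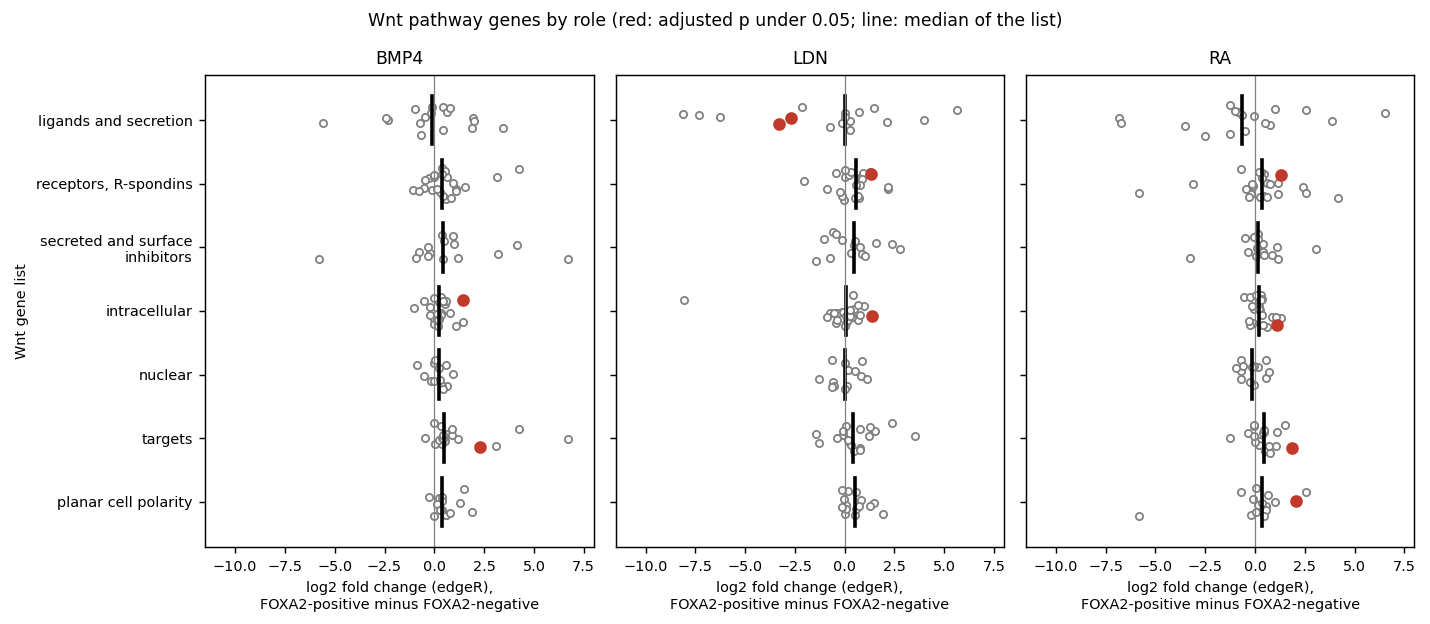
Log2 fold change of FOXA2-positive over FOXA2-negative cells (horizontal axis, edgeR) for Wnt genes by role (vertical axis) in BMP4, LDN and RA; each circle is a gene that passed the filter, red circles have an adjusted p under 0.05, black lines are list medians, and a gene may stand in more than 1 list. Red circles lie right of 0 except Wnt4 and Wnt6 in LDN, and list medians lie between -0.64 and 0.58.

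Markers of other cell types moved with these comparisons, and their part in the results was not tested. The summed level of 10 pluripotency genes was 334 to 441 CPM in FOXA2-positive BMP4 libraries, against 632 to 948 CPM in the FOXA2-negative ones. It was 349 to 355 CPM in FOXA2-positive LDN libraries, against 727 to 999 CPM in the FOXA2-negative ones, and 316 to 428 CPM in FOXA2-positive RA libraries, against 812 to 1150 CPM in the FOXA2-negative ones. The FOXA2-positive sums lay below the FOXA2-negative sums in each treatment, beside the higher Fzd2, Dact2, Prickle1 and Sp5. Tdgf1 was at 0 in FOXA2-positive RA cells, and Tdgf1 and Nanog were at 0 in FOXA2-positive LDN cells. Dppa5a was the largest part of these sums, at means of 277, 296 and 293 CPM in FOXA2-positive BMP4, LDN and RA cells. In the FOXA2-negative cells of the same treatments it had 515, 612 and 617 CPM. Of the 10, 6 fell in BMP4, 6 in LDN and 5 in RA. In BMP4, 1 of the 10 had a positive log2 fold change, Klf4, at 5.64 against 2.77 CPM, and 0 did in LDN and RA.

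Beside Dkk1 and Lef1, the summed level of 9 surface ectoderm genes was 589 to 736 CPM in FOXA2-positive BMP4 libraries and 306 to 347 CPM in FOXA2-positive LDN libraries, and 5 of the 9 rose in BMP4. In FOXA2-negative cells it was 677 to 726 CPM in BMP4 and 611 to 765 CPM in LDN, and 3 of the 9 rose. In RA it was 275 to 331 CPM in FOXA2-positive libraries, against 509 to 612 CPM in FOXA2-negative ones. None of these 9 was at 0 in any group. The sum of 8 neural progenitor genes ran the other way, at 395 to 596 CPM in FOXA2-positive BMP4 libraries and 880 to 931 CPM in FOXA2-positive LDN libraries, and at 354 to 458 CPM in BMP4 and 572 to 623 CPM in LDN in FOXA2-negative cells. Ncam1 was the largest part of this sum, at means of 287 CPM in FOXA2-positive BMP4 and 598 CPM in FOXA2-positive LDN cells. In RA the sum was 584 to 593 CPM in FOXA2-positive libraries, against 382 to 467 CPM in FOXA2-negative ones. The sums of the fractions thus lay apart in LDN and RA, higher in FOXA2-positive cells, and overlapped in BMP4. Between fractions 7, 6 and 6 of the 7 tested had a positive log2 fold change in BMP4, LDN and RA. In FOXA2-positive cells 2 of the 7 tested, Nes and Cdh2, had a positive log2 fold change for BMP4 over LDN. Of these 8, Olig2 was at 0 in all groups but FOXA2-positive BMP4. For 10 genes of the primitive streak and mesoderm, where Dkk1, Lef1 and Sp5 are also expressed in the embryo, the sum was at most 20 CPM in any library, and Msgn1 was at 0 in all groups. Nkx1-2 of this list averaged 4.57, 2.72 and 2.85 CPM in FOXA2-positive BMP4, LDN and RA cells. In the FOXA2-negative cells it had 1.35, 1.29 and 0.294 CPM. Of the 8 tested, 2, 3 and 3 had a positive log2 fold change between fractions in BMP4, LDN and RA, and 0 were called. For 7 neural crest genes the sum was 34.1 to 35.9 CPM in FOXA2-positive BMP4 libraries and 10.4 to 12 CPM in FOXA2-positive LDN libraries. For 8 endoderm genes the sum was 35.7 to 90.4 CPM over the FOXA2-positive libraries of all treatments and 4.28 to 37.5 CPM over the FOXA2-negative ones, with no overlap within a treatment. Of the 5 endoderm genes tested, 3 had a positive log2 fold change between fractions in BMP4, 2 in LDN and 3 in RA. Sox17 averaged 22.9 CPM in FOXA2-positive BMP4, 43.5 in FOXA2-positive LDN and 22.3 in FOXA2-positive RA cells, against 6.41, 7.75 and 3.42 CPM in the FOXA2-negative cells, and was called in LDN and RA. Foxa3 averaged 3.64 CPM in FOXA2-positive BMP4, 4.03 in FOXA2-positive LDN and 1.08 in FOXA2-positive RA cells, against 4.11, 6.47 and 4.62 CPM in the FOXA2-negative cells of the same treatments, and was not called. Cer1 was at 0 in all groups.

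The genes whose profile over the 17 libraries lay nearest to that of a called member were found by the root mean square difference of centred log2 CPM, among about 6670 genes that averaged 20 CPM or more. For Sp5 the nearest was Dact2 at 0.52, followed by Flrt3 at 0.53 and Ptn at 0.54, where Sp5 itself had an SD of 1.09 over the libraries. For Dact2 the nearest were Sox4 at 0.34, Dennd5b at 0.35 and Tcf4 at 0.37 (SD 0.78). For Fzd2 they were Mxra7 at 0.36, Cadm1 at 0.37 and Agpat3 at 0.37 (SD 0.68). For Prickle1 they were Cdh2 at 0.36, Cdc42ep1 at 0.43 and Gja1 at 0.46 (SD 0.99). For Lef1 they were Ankfy1 at 0.45, Lbr at 0.47 and Tmem88 at 0.51 (SD 0.78). For Dkk1 the nearest were Id1 at 1.12, Tbx3 at 1.17 and Id2 at 1.19, against an SD of 2.53 for Dkk1 itself. All these points share the same libraries and groups.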

How the data were processed

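The authors deposited 1 table of raw counts per library, by Ensembl gene and without normalisation. Per the submitters' processing notes, UMI-tools 1.0.0, HTSeq 0.11.2, DESeq2 1.26.0, cutadapt 1.18 and the build mm10 were used; the names of the deposited tables record removal of duplicates by molecular identifier. Sources used here do not state the aligner, the annotation release or the strand setting. Left out were 5 summary lines that name no gene and held 49.3% to 54.4% of each table. Groups came from the library titles. Whether libraries of a group are separate cultures is not stated; p-values therefore cover the spread between these samples alone, which may be technical.

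The tests used edgeR 4.0.16 in R 4.3.3: filterByExpr (minimum count 10, minimum total 15) kept 17813 genes, TMM factors ran from 0.943 to 1.049, and 1 robust quasi-likelihood model held the 6 groups (11 residual degrees of freedom, common biological coefficient of variation 0.632). It gave 9 pairwise comparisons and 3 interactions, with Benjamini-Hochberg adjustment over all genes tested and a threshold of 0.05; each adjusted p is from this test unless DESeq2 is named. SE is the size of the log2 fold change over the square root of F, and intervals are 95%. Levels are CPM of the library total, as mean ± SD. Alternatives were DESeq2 1.42.0, RLE and library total scaling, other filters, the compared groups alone, replicate blocks and libraries left out.

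The 9 genes, the lists and the alternatives were chosen with earlier results of these data known. The text names the 9 genes in full, other listed Wnt genes that were called (at most 10 a comparison), and the 3 genes most like each called member (mean of at least 20 CPM, log2 CPM with a prior count of 2). Replicate numbers were taken to pair libraries where deviations from group means correlated above 0.1 in every pair, over 6670 genes. In RA the fractions correlated at 0.587, 0.239 and 0.277, in BMP4 at 0.0499 to 0.0783 and in LDN at 0.0551 to 0.0596. Only RA was therefore taken as paired, from the data and not from a label. Both RA libraries numbered 1 stood apart from the rest, which can by itself raise each of the RA correlations. Libraries of unlike number were not correlated, so the pairing is not established.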

Additional observations from a re-analysis of the deposited data

How the results depend on the processing

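Counts below are of the 9 genes called. Without 1 library, between fractions they were 1 to 3 in BMP4 (2 with all libraries), 0 to 2 in LDN (2) and 2 to 4 in RA (4), and between BMP4 and LDN 1 to 3 in FOXA2-positive cells (2) and 0 to 1 in FOXA2-negative cells (1); the treatment comparisons with RA and the interactions stayed at 0. Over all genes, fits without 1 library called 61 to 165 between BMP4 fractions, 105 to 219 between RA fractions and 25 to 36 in FOXA2-negative BMP4 against LDN. With all libraries these totals were 164, 212 and 35. Between LDN fractions and in FOXA2-positive BMP4 against LDN, the full fit called 177 and 57 genes in all. Each fit without 1 library called fewer genes there, so calls were lost over all genes and not only among the 9. Those totals are not given, since some of the fits leave 1 library in a group. For the alternatives that follow, totals over all genes are not given. Without both RA libraries numbered 1, RA fractions gave 1. With the compared groups alone, LDN fractions gave 1, FOXA2-negative BMP4 against LDN gave 0 and FOXA2-positive BMP4 against RA gave 1. DESeq2 gave 2 for FOXA2-negative BMP4 against LDN and 1 each for FOXA2-positive BMP4 and LDN against RA. With no filter these were 2, 1 and 2, and FOXA2-negative BMP4 against RA gave 1. The cause was not tested. The replicate block across treatments gave 0 for FOXA2-negative BMP4 against LDN (Sp5, adjusted p = 0.057) and changed no other count between treatments. Same-numbered libraries of different treatments correlated at -0.163 to 0.284, not above 0.1 in every pair. Their numbers were therefore not taken to pair them, and whether they share a culture or day is not known. The replicate block within treatment gave 4 in RA, 3 in BMP4 (Prickle1 added, 1.65, adjusted p = 0.028) and 2 in LDN, where the FOXA2-negative library numbered 1 has no partner. For genes called in the main fit and members called in an alternative, no direction reversed in the alternatives run. Directions of results that were never called were not compared. Depth limits Dkk1 in LDN, at 5 and 22 counts per group.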
